A study of Saccharomyces cerevisiae with 28 samples.

Results

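Inactive Mcm2-7 helicase complexes, marked by cleavage from an Mcm2-MNase fusion, were mapped around the rDNA replication origin (the rARS) of *sir2* yeast with and without a transcription terminator to the left of the origin. The comparison used 3 of the 28 deposited libraries, 1 from the strain with the terminator and 2 from the strain without it, taken by the strain named in each column and by the sample labels. All 3 are Mcm2-ChEC libraries of *Saccharomyces cerevisiae* cells held in G1 with alpha factor. Both strains carry *sir2Δ::LEU2*, *fob1Δ::HIS3*, *hmlαΔ::NAT* and *MCM2-3xFLAG-MNase-KanMx*, a HygR marker on chromosome XII and the background alleles *can1-100*, a *leu2* allele, *trp1-1*, *his3-11*, *ura3-1* and *ade2-1* in a *MATa* genotype, so the absence of Sir2 and of the fork barrier protein Fob1 is shared by both sides of the comparison. The *sir2* strains differ in the *CYC1* terminator, which was placed in the array of one of them by modifying a short array and letting it expand. Each genotype is 1 expanded strain, and the sources give the rDNA copy numbers of the 2 strains in opposite orders, so array size and terminator cannot be told apart here. A *SIR2* strain with expanded rDNA and no terminator, set beside them at the end, has the same genotype except that it is listed without *sir2Δ::LEU2* and also without *hmlαΔ::NAT*. The 2 *sir2* libraries without the terminator come from 1 strain and carry calcium times of 30 s and 60 s in their names, and the library with the terminator carries 30 s. The labels call 1 of the 2 samples without the terminator a replicate and do not say whether they are separate cultures. The paper's method stops permeabilized cells at several calcium times, so these 2 libraries may be time points of 1 digestion. Their spread would then be one of calcium time within 1 strain, not one between cultures. With 1 library against 2, an exact permutation test could not give a p below 0.333, so no test was run and each value is set against the spread of the 2 libraries without the terminator.

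Mcm2-7 is the replicative helicase. It is loaded onto origins in G1 as an inactive pair of rings that encircles the DNA and waits there for S phase. In the rDNA, the origin lies in the spacer between the 35S precursor gene and the 5S gene, and a promoter for RNA polymerase II, c-pro, lies to its left and reads toward it. Sir2, a histone deacetylase that needs NAD+, keeps c-pro silent, and loss of Sir2 turns it on. The *CYC1* terminator ends transcription by RNA polymerase II, and here it lies downstream of the c-pro start and upstream of the origin. The comparison thus sets Mcm2-7 to the right of the origin beside a block to transcripts that would cross it. The inserted bases also move the left flank away from the origin. No strain with an insert other than a terminator is in the series, so termination and inserted DNA cannot be told apart here. In ChEC (chromatin endogenous cleavage), calcium briefly activates the nuclease fused to Mcm2, and the short fragments released next to the tagged protein are sequenced. A base with high depth was therefore often part of such a fragment.

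The insertion lies between bases 458950 and 458951 of chromosome XII (sacCer3), 40 bp to the left of the first base of the annotated origin ARS1200-1 (458991 to 459097, plus strand, 107 bp). The site and the origin are intergenic, in the spacer NTS2-1 (458433 to 459675). The 35S precursor gene RDN37-1 (451575 to 458432, minus strand) lies to the left, and the 5S gene RDN5-1 (459676 to 459796, plus strand) lies to the right. Distances below are counted from 458991, written rARS. The sequences on which the comparison turns are given 5′ to 3′ on the plus strand of the sacCer3 reference. The first ends at the insertion, the second joins the insertion to the rARS, the third is the origin, with the only match to the ARS consensus sequence in the interval in capitals, and the last is the stretch at the third nucleosome where depth differed most, with the bases between the maxima of the 3 libraries in capitals.
Left flank of the insertion, 458901 to 458950: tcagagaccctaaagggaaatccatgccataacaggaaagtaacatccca
Insertion to rARS, 458951 to 458990: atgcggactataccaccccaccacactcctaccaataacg
ARS1200-1, 458991 to 459097: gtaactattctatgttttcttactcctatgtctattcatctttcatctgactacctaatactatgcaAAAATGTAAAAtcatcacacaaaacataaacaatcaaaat
Right maximum, 459089 to 459148: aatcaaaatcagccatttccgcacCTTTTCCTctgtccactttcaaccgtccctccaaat

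The match to the ARS consensus, which is the element bound by the origin recognition complex, lies on the minus strand from 67 to 77 bp right of the rARS (459058 to 459068). A match on either strand was found in 4.16% of windows of the same length as the region used below for shares along chromosome XII. The origin is poor in G and C (27.1%), against 52.5% in the 40 bases between the insertion and the rARS and 45.0% in the stretch of the right maximum. The reference chromosome holds 2 copies of each of these sequences in place of the many in the cell, so every depth is a sum over the repeats of the array.

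The table holds the read depth at 2001 bases (458000 to 460000). The summed depth corresponds to 1978802 reads in the library with the terminator, 958214 in the 30 s library without it and 3337670 in the 60 s library without it. Each depth was divided by the summed depth of its own library and is given as ppm of that total (its depth for a summed depth of 1000000). The libraries with the terminator were aligned by the authors to a reference that holds the insertion, so positions to its right are displaced in their columns. Sonicated DNA came from other strains with expanded rDNA, as 8 libraries of flow-sorted G1 and S-phase cells. These are *SIR2* and *sir2* strains with and without the terminator, all listed with *fob1Δ::HIS3* and without the Mcm2-MNase fusion. In this sonicated DNA, which carries no footprints, the base-to-base steps of the summed columns with and without the terminator matched best at a displacement of 211 bp (r = 0.61 across 500 bases, which are not independent, and 0.20 at the next best displacement, 214 bp). Of 16 single pairs of sonicated libraries, 15 gave the same displacement, and so did the steps of the Mcm2-ChEC library with the terminator against each library without it (r = 0.78 and 0.84). The 211 inserted bases are reported apart. Bases shared by both references end at 459789. Counting intervals below rest on read pairs (summed depth divided by 100), are at the 95% level and cover counting error only. The fragments were not separated by size in these depths, so a window named after a nucleosome is a distance range, not a nucleosome-sized fragment class.

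With the terminator, Mcm2-ChEC depth just right of the origin was 0.444 of the mean level without it, while depth in the 40 bases next to the origin on the left was not lower beyond the spread between the libraries without it. The third-nucleosome window (459098 to 459250), which begins at the right end of the origin, had 668 ppm per base with the terminator. The same window had 1533 ppm in the 30 s library and 1478 ppm in the 60 s library without it. The libraries without the terminator were therefore close to each other in this window, and the library with it lay far below both. The ratio of the terminator value to the mean of the others was 0.444 (counting interval 0.441 to 0.447), a log2 ratio of -1.17. Taken singly, the log2 ratio was -1.20 against the 30 s library and -1.15 against the 60 s library, and the SD between the libraries without the terminator was 0.037 on this scale. The direction held in each of the 9 alternatives computed for it, with log2 ratios from -1.39 to -0.87. The alternatives that leave out 1 library could not turn it, since the library with the terminator lay below both others.

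**Figure D1:**
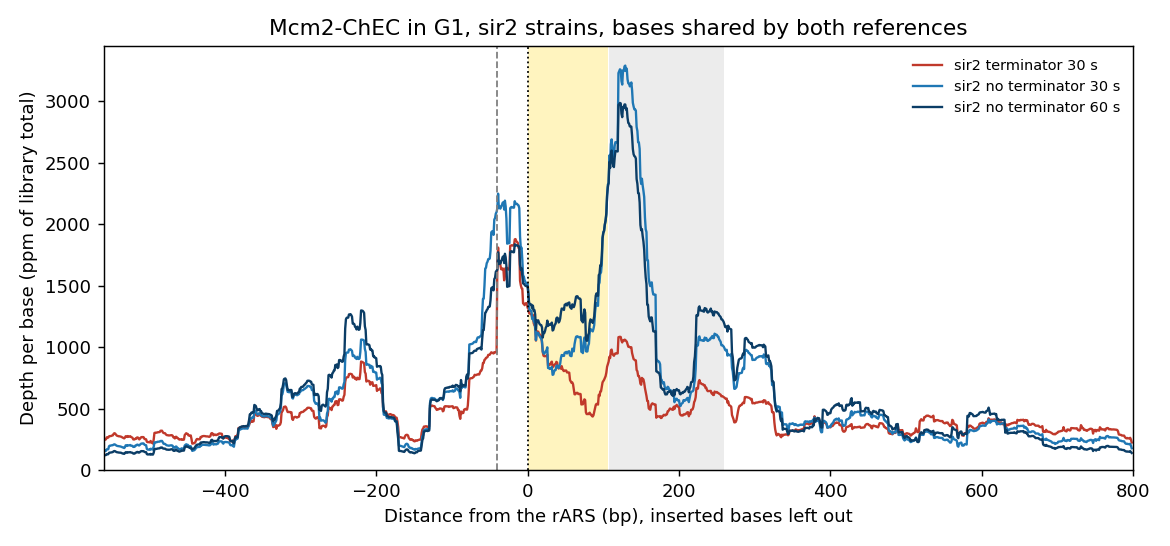
Mcm2-ChEC depth per base (y axis, ppm of the library total) by distance from the rARS (x axis, bp) over the bases shared by both references, 1 line per *sir2* library; the dotted line marks the rARS, the dashed line the insertion, the yellow band the origin and the grey band the third-nucleosome window. At the right maximum the library with the terminator reached 1084 ppm and those without it 3288 and 2984 ppm. In the 40 bases just left of the rARS the means were 1651 ppm with the terminator and 1993 and 1678 ppm without it.

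The right maximum was sought from 40 to 470 bp right of the rARS. It lay 122 bp right of the rARS (base 459113) with the terminator at 107296 reads of depth, or 1084 ppm. Without the terminator it lay at 129 bp in the 30 s library (157518 reads of depth, 3288 ppm) and at 122 bp in the 60 s library (498042 reads of depth, 2984 ppm). The peak thus stayed within 7 bases of the same place and lost height. The stretch over which depth was at least 50% of the right maximum ran from 94 to 159 bp with the terminator, from 98 to 159 bp in the 30 s library and from 94 to 157 bp in the 60 s library. The terminator value was 0.346 of the mean of the other libraries at the maximum. In a running mean over 25 bases the ratio was lowest 149 bp right of the rARS against the 30 s library (0.308) and 138 bp right of it against the 60 s library (0.353). Base-to-base steps within the third-nucleosome window were alike in shape, with r = 0.86 and 0.90 between the library with the terminator and those without it, and 0.96 between the latter (across 153 bases).

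The difference varied with distance from the rARS without a steady trend and was largest around the right peak. In the first 30 bases of the origin the library with the terminator had 1092 ppm, against 1108 ppm in the 30 s library and 1236 ppm in the 60 s library. The values differed little there, by ratios of 0.985 and 0.884. From 30 to 59 bp the library with the terminator had 819 ppm, against 890 and 1267 ppm, ratios of 0.920 and 0.646. From 60 to 89 bp, the stretch that holds the ARS consensus match, it had 541 ppm, against 1063 and 1265 ppm, ratios of 0.509 and 0.428. From 120 to 149 bp it had 961 ppm, against 3046 and 2705 ppm, ratios of 0.316 and 0.355. In all 3 libraries depth fell from the rARS into the origin and then rose to a peak, which was lower with the terminator. The lowest depth before the peak lay 86 bp right of the rARS with the terminator (436 ppm). It lay at 33 bp in the 30 s library (775 ppm) and at 78 bp in the 60 s library (1052 ppm). The right maximum was 2.49 times this lowest depth with the terminator, against 4.24 and 2.84 times. The difference of -1.05 from their mean was near their SD of 0.99. Between 180 and 209 bp, behind the peak, the ratios returned to 0.795 and 0.756. They were 0.583 and 0.488 in the next shoulder, from 240 to 269 bp, and reached 0.980 and 1.04 from 360 to 389 bp.

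Over the whole origin window (458991 to 459097) depth was 795 ppm with the terminator, 1136 ppm in the 30 s library and 1340 ppm in the 60 s library. The log2 ratio was -0.64, against an SD of 0.17 between the libraries without the terminator, and -0.33 with the total over shared bases. The fourth-nucleosome window (459251 to 459410) had 424 ppm with the terminator, against 591 and 642 ppm (log2 ratio -0.54, SD 0.085). This ratio was -0.23 with the total over shared bases, -0.97 with the 35S mean subtracted and -1.62 with the lowest depth subtracted. In both windows the library with the terminator lay below both others under each of the scalings and backgrounds tried. The fifth-nucleosome window (459411 to 459580) had 354 ppm with the terminator, between the 327 ppm of the 30 s library and the 374 ppm of the 60 s library. With a background subtracted the fifth window was lower too, with a log2 ratio of -0.54 for the 35S mean and -3.56 for the lowest depth, which leaves little depth there. Depth was thus lower across the origin and the third and the fourth window, and the order beyond them depended on the background. The window before the 5S gene (459581 to 459675) had 379 ppm with the terminator, against 343 and 356 ppm, and this order turned when a background was subtracted. The 5S gene, transcribed by RNA polymerase III, had 317 ppm over the bases both references hold (459676 to 459789), against 244 and 179 ppm.

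**Figure D2:**
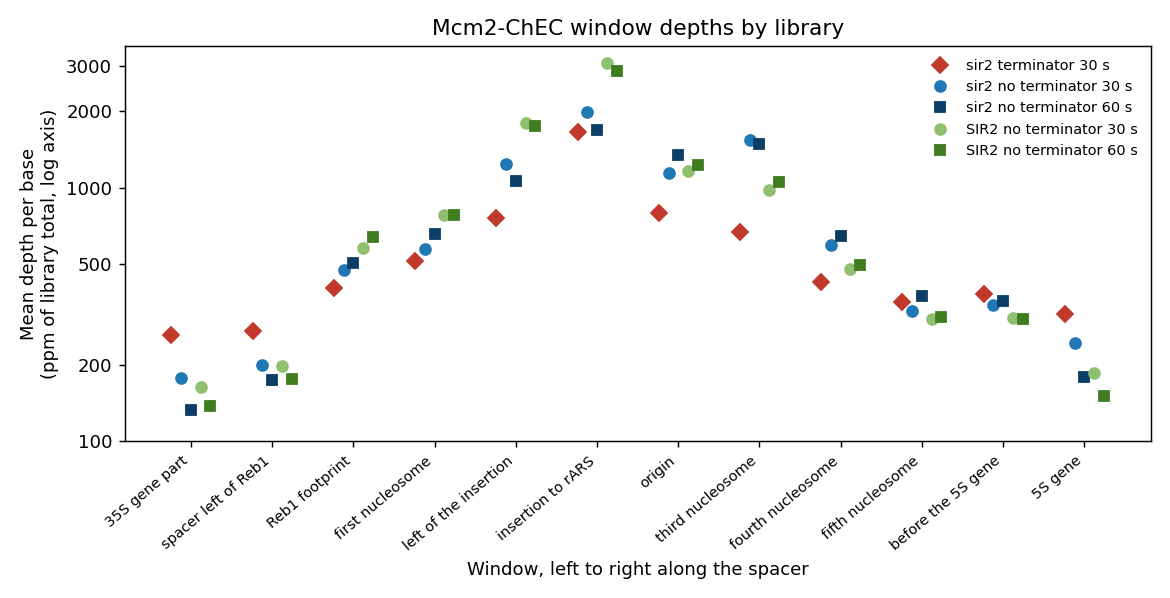
Mean Mcm2-ChEC depth per base (y axis, ppm of the library total, log axis) in 12 windows ordered from left to right along the table (x axis), 1 point per library, for the *sir2* library with the terminator, the *sir2* libraries without it and the *SIR2* libraries without it. The terminator point is the lowest of the *sir2* points in 7 windows, among them the third nucleosome (668 ppm against 1533 and 1478 ppm), lies between the others in 1 and is the highest in 4, all at the outer ends of the table.

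To the left, the 40 bases between the insertion and the rARS, which adjoin the rARS in both strains, had 1651 ppm with the terminator. They had 1993 ppm in the 30 s library and 1678 ppm in the 60 s library without it. The log2 ratio of -0.15 was smaller than the SD of 0.18 between the libraries without the terminator and changed sign when the total was taken over shared bases only, to 0.15. It was 0.29 with the lowest depth left of the region subtracted and 0.25 with the mean depth of the 35S gene part subtracted, both past that SD and with the terminator library above both others. Depth just left of the rARS was thus not lower with the terminator beyond the spread, and whether it was higher depended on the background. The left maximum was sought from 170 bp left of the rARS to the rARS itself. It lay 16 bp left of the rARS with the terminator (185844 reads of depth, 1878 ppm), 39 bp left of it in the 30 s library (107671 reads of depth, 2247 ppm) and 17 bp left of it in the 60 s library (306393 reads of depth, 1836 ppm).

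Divided by this left maximum, the right maximum was 0.577 with the terminator, 1.46 in the 30 s library and 1.63 in the 60 s library. The higher of the 2 peaks was thus the right one in both libraries without the terminator and the left one in the library with it. The difference from the mean of the libraries without the terminator was -0.967, against an SD of 0.115 between them (n = 2). This ratio compares depths within 1 library, so it does not depend on how the libraries were scaled to each other.

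Left of the insertion, sequence that adjoins the rARS region in one strain is moved 211 bp away in the other. The 50 bases that end at the insertion (458901 to 458950) had 759 ppm with the terminator, against 1243 and 1062 ppm without it (log2 ratio -0.60, SD 0.16, and -0.30 with the total over shared bases). The first-nucleosome window (458721 to 458900) had 513 ppm, against 572 and 655 ppm, a log2 ratio of -0.26 that became 0.050 with the total over shared bases and 0.025 with the Reb1 footprint as the reference. The Reb1 footprint (458591 to 458720) had 402 ppm, against 471 and 505 ppm, a log2 ratio of -0.28 that became 0.027 with the total over shared bases, -0.71 with the 35S mean subtracted and -1.44 with the lowest depth subtracted. Reb1 is a DNA-binding protein of the rDNA spacer and of many promoters, and its motif TTACCCG lies here on the minus strand, 353 bp left of the rARS (458638 to 458644). Windows of the same 130-bp length held this motif on either strand in 0.892% of chromosome XII. The direction at these windows, other than next to the insertion, thus depended on the scaling, and its size on the background.

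The inserted bases carried a large part of the depth in their library. Their mean depth was 97308 reads, or 983 ppm per base, and together they took 20.8% of the summed depth. The 100 bases to their left had a mean depth of 60959 reads and the 100 bases to their right 122048 reads. Depth rose across the insertion toward the rARS, from 606 ppm in inserted bases 1 to 30 and 418 ppm in bases 31 to 60 to 1001 ppm in bases 91 to 120 and 1808 ppm in bases 181 to 211. The highest depth of the whole library, 207114 reads, lay on inserted base 198. The left footprint in this strain therefore included inserted sequence. Within 25 bases of each junction depth did not drop below 41081 reads on the left and 152675 reads on the right. Reads thus covered the inserted bases and both junctions of the reference that holds them. Whether single reads cross a junction cannot be seen from depth. In the 4 sonicated libraries with the terminator the lowest depth near a junction was from 0.909 to 1.07 times the library mean. Inserted bases 151 to 180 were from 1.16 to 1.21 times the flanking 200 bases in those libraries, and the part of this unevenness in the ChEC profile was not tested.

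**Figure D3:**
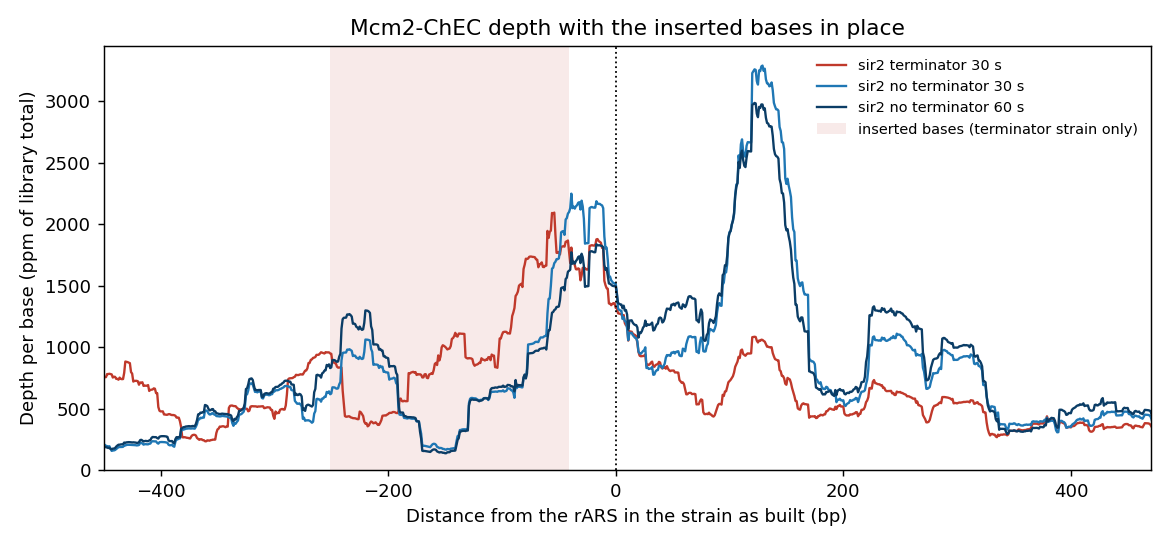
Mcm2-ChEC depth per base (y axis, ppm of the library total) by distance from the rARS with the inserted bases in place (x axis, bp); the red line is the *sir2* library with the terminator, the blue lines are the *sir2* libraries without it, the shaded band is the 211 inserted bases and the dotted line the rARS. The left footprint of the library with the terminator extends into the inserted bases, with its maximum of 2093 ppm 54 bp left of the rARS, and its right maximum of 1084 ppm lies below both others.

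With the inserted bases in place, the left maximum of the library with the terminator lay 54 bp left of the rARS at 2093 ppm. Depth of at least 50% of it ran from 102 bp before the rARS to 18 bp after it, over 121 bp, of which 62 were inserted bases. In the 30 s library without the terminator the stretch at 50% or more of the maximum ran from 60 bp before the rARS to 10 bp after it, over 71 bp, and in the 60 s library it had no right edge before the right peak. The left edge in the 60 s library lay 77 bp before the rARS. The left footprint with the terminator thus reached farther from the rARS on its left side than in either other library. Mean depth over the 170 bases left of the rARS in each strain as it is built was 1344 ppm with the terminator, 1028 ppm in the 30 s library and 897 ppm in the 60 s library. Of the depth in these 170 bases, 71.1% lay on inserted bases in the strain that has them. Measured as built, depth on the left of the rARS was higher with the terminator than in either library without it, by 381 ppm over their mean (SD 92.6 ppm).

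The right share was taken over a region that begins 170 bp before the rARS and ends 470 bp after it, without the inserted bases, as the percent of its depth found after the rARS. It was 66.6% with the terminator (Wilson interval 66.4% to 66.7%, 404388 read pairs). It was 72.8% in the 30 s library (72.7% to 73.0%, 310622 read pairs) and 76.3% in the 60 s library without the terminator (76.3% to 76.4%, 1085709 read pairs). The library with the terminator lay below both, by -8.02 percentage points against their mean, against an SD of 2.49 points between them. An even profile would give 73.3%, and the 8 sonicated libraries, with 4382 to 18282 read pairs in the region, gave 73.8% to 74.7%. The libraries without the terminator thus lay on either side of the share of sonicated DNA, and the library with it lay below. When the left stretch was limited to the 40 bases that adjoin the rARS in both strains, the shares were 80.2% with the terminator, 85.3% and 87.9%. When the 170 bases left of the rARS were taken as built, the share was 54.2% with the terminator, and with all inserted bases counted as left of the rARS it was 44.1%.

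A share that uses only bases right of the rARS leaves out the bases moved by the insertion and does not depend on the scaling. Of the depth from 1 to 470 bp right of the rARS, the third-nucleosome window held 37.6% with the terminator (Wilson interval 37.4% to 37.8%). It held 49.7% in the 30 s library (49.5% to 49.9%) and 45.5% in the 60 s library (45.4% to 45.7%). The difference of -10.0 percentage points from their mean stood against an SD of 2.93 points between them. An even profile would give 32.6%, and sonicated DNA gave 31.1% to 33.3%. In the library with the terminator this share was thus nearer to that of sonicated DNA, though still above it. Sonicated DNA was not cut by the fused nuclease, so it is not the background of a ChEC library. An even background also draws this share toward 32.6%, and its part here was not tested. With the mean depth of the 35S gene part subtracted, the share was 41.7% with the terminator, against 53.4% and 47.4%. The origin held 30.8% of the same depth with the terminator, against 25.4% and 28.6% without it, and the fourth-nucleosome window held 24.9%, against 20.04% and 20.7%.

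**Figure D4:**
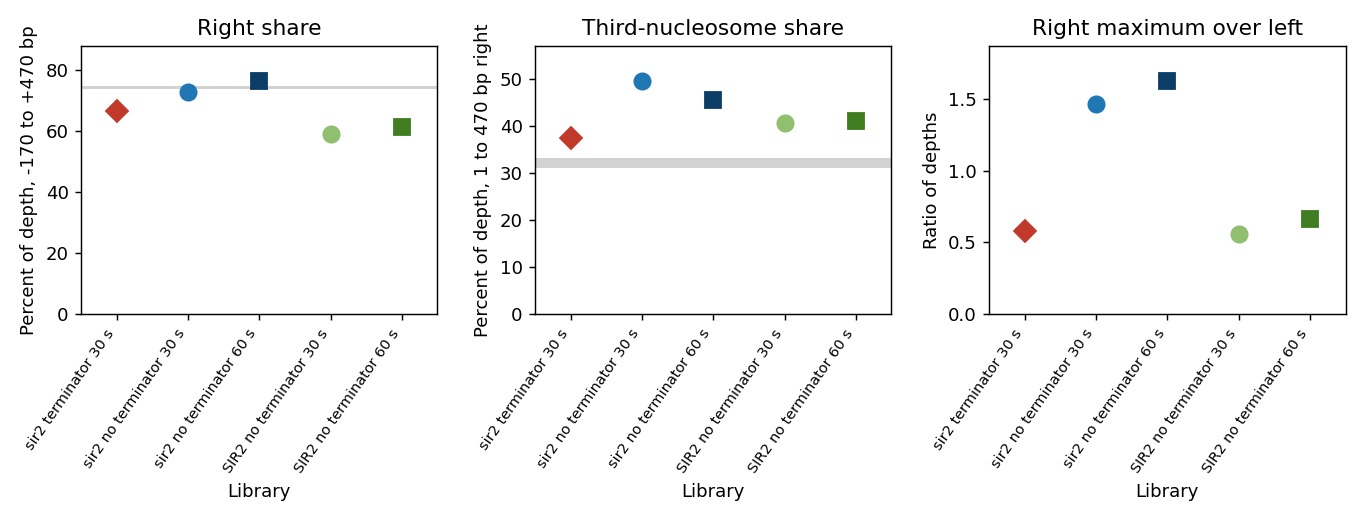
Right share (left panel, percent of the depth in the region that begins 170 bp before the rARS and ends 470 bp after it), third-nucleosome share (middle panel, percent of the depth from 1 to 470 bp right) and right maximum over left maximum (right panel, ratio of depths), 1 point per library; grey bands give the range of the 8 sonicated libraries. In each panel the *sir2* library with the terminator (66.6%, 37.6% and 0.577) lies below both *sir2* libraries without it.

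The library with the terminator also had a higher level away from the origin. The part of the 35S gene in the table (458000 to 458432) had 262 ppm with the terminator, against 178 and 133 ppm without it. The 158 bases of spacer next to it (458433 to 458590) had 272 ppm, against 199 and 175 ppm. A more even profile lowers every peak relative to the total, and the part of this difference in the results above was not tested as a cause. With the mean depth of the 35S part subtracted in each library, the right share was 61.8% with the terminator, against 72.7% and 76.8%, and the right maximum over the left maximum was 0.509, against 1.50 and 1.67. The third-nucleosome share with the same subtraction was 41.7%, against 53.4% and 47.4%. Each of these measures was thus lower with the terminator after the subtraction as well.

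The *SIR2* strain with expanded rDNA and no terminator, in which c-pro is repressed, gives the profile with Sir2 present for a side-by-side reading (2 libraries, 30 s and 60 s of calcium). It differs from the *sir2* strains at *hmlα* as well as at *SIR2*, so the alleles cannot be told apart here. Its right share was 58.9% and 61.4%, its third-nucleosome share 40.7% and 41.2%, and its right maximum over left maximum 0.561 and 0.663. The ratio of 0.577 in the *sir2* library with the terminator lay between these values. Its right share of 66.6% lay above both *SIR2* shares and below both *sir2* libraries without the terminator, and its third-nucleosome share of 37.6% lay below all 4. The first 2 of these measures leave out the inserted bases. With the 170 bases left of the rARS taken as built, the ratio was 0.518 and the right share 54.2%, each below both *SIR2* libraries. The order against the *SIR2* strain thus depended on how the inserted bases were counted. Window depths did not match those of the *SIR2* strain in level. The bases between the insertion and the rARS had 3089 and 2878 ppm in the *SIR2* libraries, against 1651 ppm in the *sir2* library with the terminator, and the third-nucleosome window had 978 and 1049 ppm, against 668 ppm. Inserted bases hold part of the total of the library with the terminator. With its total over shared bases it had 2083 and 843 ppm in these windows, and the *SIR2* values were not rescaled in this way. No test of these differences was run, and the *SIR2* strain with the terminator was not analysed here.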

How the data were processed

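The authors sequenced 50 bases from each fragment end, aligned them with GSNAP (Picard and bedtools are also listed in the submitters' processing notes) and deposited the coverage, as unscaled read depth per base of chromosome XII (sacCer3), in 1 table. Versions and settings are not given in the sources used here. Strains with expanded rDNA were aligned to modified references named in the columns. Depth in repeats depends on how reads with many matches were placed, and the settings for this are not given in the sources used here. Of the 28 columns, 13 were used and 15 were not, 2 of which carry a strain number the study does not list. Columns were assigned by strain number and phase. The 2 *sir2* columns without the terminator cannot be tied to single samples, only to their group.

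Windows are distances from the rARS, and single positions were named only for maxima. Annotation and sequences are RefSeq's for the reference genome of *S. cerevisiae*, whose build is the one the files use, whereas the strains belong to another background. The members, windows and measures were chosen with earlier results of these data known. Each depth was divided by its column's total. Wilson intervals were used for shares and log-normal ones for ratios. On simulated reads, an insertion of 180 bp was found as 180 and a window ratio of 0.5 as 0.502. On simulated counts per base, a right share of 30% was found as 30.2%. Alternatives were other scalings, backgrounds, regions, boundaries, left stretches and displacements, and leaving out each library. The third-nucleosome share, the subtraction of the 35S mean, the as-built left maximum and the displacement from Mcm2-ChEC were added after seeing the data. Python 3.11.15, numpy 2.4.6, pandas 2.3.3 and matplotlib 3.10.9 were used.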

Additional observations from a re-analysis of the deposited data

How the results depend on the processing

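No paired analysis was possible because neither the labels nor the columns number the libraries in pairs and 1 library stands against 2. The right share stayed lower with the terminator in 13 of 13 alternatives. Those that leave out 1 library could not change its direction, since the library with the terminator lay below both others. The same holds for the right maximum over the left maximum and for the third-nucleosome measures. Its difference was -16.6 percentage points with the lowest depth left of the region subtracted and -12.9 with the 35S mean subtracted. It was -3.19 with the boundary 40 bp farther left and -11.1 with it 40 bp farther right. It was -30.4 with the inserted bases counted as left and -20.4 with the 170 bases as built. Leaving out each library without the terminator gave -9.77 to -6.26. The right maximum over the left maximum differed by -1.15 with the lowest depth subtracted, and by -1.05 to -0.886 when each library was left out. The third-nucleosome share differed by -12.1 to -7.96 points in 7 of 7 alternatives, and both ends of this range came from leaving out 1 library. The log2 ratio of the third-nucleosome window was -0.87 with the total over shared bases, -0.89 with the Reb1 footprint as the reference and -1.39 with the lowest depth subtracted. Taking the total over shared bases raised every log2 ratio by 0.31, because the inserted bases hold part of the total of 1 library only. With it the log2 ratio was 0.027 at the Reb1 footprint and 0.050 at the first nucleosome, which also had 0.025 with the Reb1 reference. The window before the 5S gene turned to -0.71 with the lowest depth subtracted and -0.19 with the 35S mean subtracted. The displacement was 229 bp when depth was correlated in place of steps and 119 bp in 1 of 16 single pairs; the cause was not tested. The 5S window gave no value with the lowest depth subtracted, since its depth lies under that background. Leaving out the displacement, which has no replicates, 80 of 116 alternative values moved by less than 1 SD between the 2 libraries without the terminator, which are 2 calcium times of 1 strain. The spread among libraries with the terminator is unknown, since there is 1.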

Other observations

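The contrast of the profiles differed as well. The highest depth in the table was 7.98 times the mean over the 35S part in the *sir2* library with the terminator, against 18.5 and 22.4 times in the *sir2* libraries without it. It was 20.9 and 23.1 times in the *SIR2* libraries. The column names of the Mcm2-ChEC libraries without the terminator end in an index sequence and a further suffix, and that of the library with it has neither. The labels do not say whether it was prepared or sequenced with the others, so terminator and preparation cannot be told apart here. The lowest depth between the right end of the Reb1 footprint and the region around the rARS was 350 ppm with the terminator, against 297 and 256 ppm. Base-to-base steps in the spacer left of the insertion were alike in shape, with r = 0.84 and 0.88 between the library with the terminator and those without it and 0.96 between the latter (518 bases, not independent, in libraries of unequal depth).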
